A study of Drosophila melanogaster with 3 samples.

Results

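The proteasome genes were taken as every gene of the count tables whose symbol begins with Rpt or Rpn and a digit, with Prosalpha or with Prosbeta, which gave 47 of 17824 genes. The choice used symbols only and no measured value. By the suffix R or T, with or without a digit after it, 15 of the 47 were set apart as related paralogues. The other 32 were the general subunits of the 26S proteasome. Of these, 14 belong to the core particle (7 α and 7 β subunits) and 18 to the regulatory particle (6 ATPases of the base, 4 other base subunits and 8 lid subunits).

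The proteasome degrades proteins that carry ubiquitin chains. Its core particle is a barrel of stacked rings, in which the outer rings of α subunits form the gate and the inner rings of β subunits hold the protease sites. The regulatory particle caps the barrel. Its base unfolds the substrate with a ring of ATPases and holds receptors for ubiquitin, and its lid carries the enzyme that removes the ubiquitin chain. In developing neurons the ubiquitin-proteasome system is known for its part in axon pruning and synapse formation. In Drosophila many subunit genes have paralogues that are known mostly from the testis, where alternative proteasomes are built during spermatogenesis.

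Levels were measured by single-cell RNA sequencing of 3 types of visual projection neuron of the Drosophila optic lobe, LC4, LPLC1 and LPLC2, at 48, 72 and 96 h after puparium formation (APF), the onset of metamorphosis. Each type was marked by its own split-GAL4 driver, which works only where both parts of the transcription factor are made: R47H03 with 72E01 for LC4, R64G09 with R37H04 for LPLC1, and R19G02-p65.AD with R75G12-GAL4.DBD for LPLC2. All cells carried the nuclear reporter UAS-His2A-GFP and, from the father, 1 copy of the third chromosome of an inbred line from the Drosophila Genetic Reference Panel (a DGRP strain). GFP+ cells were sorted from dissociated brains, and there was no mutant and no treatment. A cross of 1 driver to 1 DGRP strain served as the replicate. Each type and stage had 6 crosses, apart from LC4 at 72 and 96 h with 4, and the animals of a cross were pooled. Strain DGRP-555 occurred at 48 h only and DGRP-320 at 72 and 96 h only. All crosses of a stage shared 1 library, so stage and library cannot be told apart, whereas the neuron types were compared within a library.

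The authors' annotation named 2517, 2244 and 913 cells as LC4, LPLC1 or LPLC2 at 48, 72 and 96 h. A further 78, 125 and 126 cells had the label X and entered no comparison. The unique molecular identifiers (UMIs) of all cells of a type, stage and cross were added up, which gave 50 sums of 12 to 364 cells and 253805 to 7041162 UMIs. Median UMIs per cell lay between 16775 (LPLC2 at 96 h) and 29764 (LC4 at 72 h). The tables shared 1 to 5 cell barcodes between any pair of stages. The pan-neuronal gene elav averaged 2.15 to 5.38 UMIs per 10000 in all 9 groups. The LC4 marker kn averaged 4.92 to 11.5 in LC4 and at most 0.036 in the others, and br, a marker of LC4 and LPLC1, averaged at least 23.7 in both against at most 0.269 in LPLC2. Of the defining markers of other cells, the glial gene repo averaged at most 0.0068 and the photoreceptor opsin ninaE at most 0.152.

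Levels are given as UMIs per 10000 UMIs of the cross, so a level is a share of the RNA counted and says nothing of the number of cells. Of the 47 genes, 34 passed the filter on low counts and were tested among 7011 genes: 31 of the 32 general subunits and the paralogues Rpt3R, Rpt6R and Rpn13R. The general subunits held 263265 UMIs, which was 99.37% of the set, and the 15 paralogues held 1659. Per kilobase of longest annotated transcript (Ensembl BDGP6.54, the annotation of all positions given here), the tested general subunits ran over all sums from 1.32 UMIs per 10000 for Prosbeta4, a β-ring subunit, to 0.126 for Rpn2, a scaffold of the base. The subunit left out was Prosalpha1, an α-ring gene with 86 UMIs in all. Its neighbouring copy, listed as CG30382, had 0 UMIs, and reads shared by 2 near-identical copies can be lost in counting, so the level of Prosalpha1 is uncertain.

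The general subunits were highest at 48 h in every type. Their summed level in LC4 averaged 33.7 ± 2.79 UMIs per 10000 at 48 h, 22.0 ± 0.644 at 72 h and 17.2 ± 1.82 at 96 h (SD, n = 6, 4 and 4 crosses). In LPLC1 it averaged 30.1 ± 2.26, 16.6 ± 0.938 and 16.3 ± 2.20 (n = 6 each), and in LPLC2 26.4 ± 1.49, 16.7 ± 1.36 and 18.2 ± 1.36 (n = 6 each). Between 72 and 48 h the crosses did not overlap in any type, and the sum was lower at 72 h in each strain present at both stages (5 of 5 in LPLC1 and in LPLC2, 4 of 4 in LC4). Between 96 and 72 h the sum was lower in 4 of 4 strains of LC4, again without overlap, but it was higher at 96 h in 3 of 6 strains of LPLC1 and in 5 of 6 of LPLC2.

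The core particle accounted for most of the difference between 72 and 48 h. The 14 core subunits together had 9.90 to 10.4 UMIs per 10000 in the 4 LC4 crosses at 72 h, against 17.9 to 22.1 at 48 h. In LPLC1 the range was 6.34 to 7.93 at 72 h against 14.8 to 18.5 at 48 h, and in LPLC2 5.65 to 6.84 against 13.5 to 16.1. The mean core sum at 72 h was thus 0.504, 0.423 and 0.440 times that at 48 h in LC4, LPLC1 and LPLC2. For the 18 regulatory subunits together, the same ratios were 0.870, 0.722 and 0.878. Within the regulatory particle the 6 ATPases had ratios of 0.974, 0.780 and 0.974, the 4 other base subunits 0.906, 0.766 and 0.924, and the 8 lid subunits 0.771, 0.651 and 0.774.

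**Figure D1:**
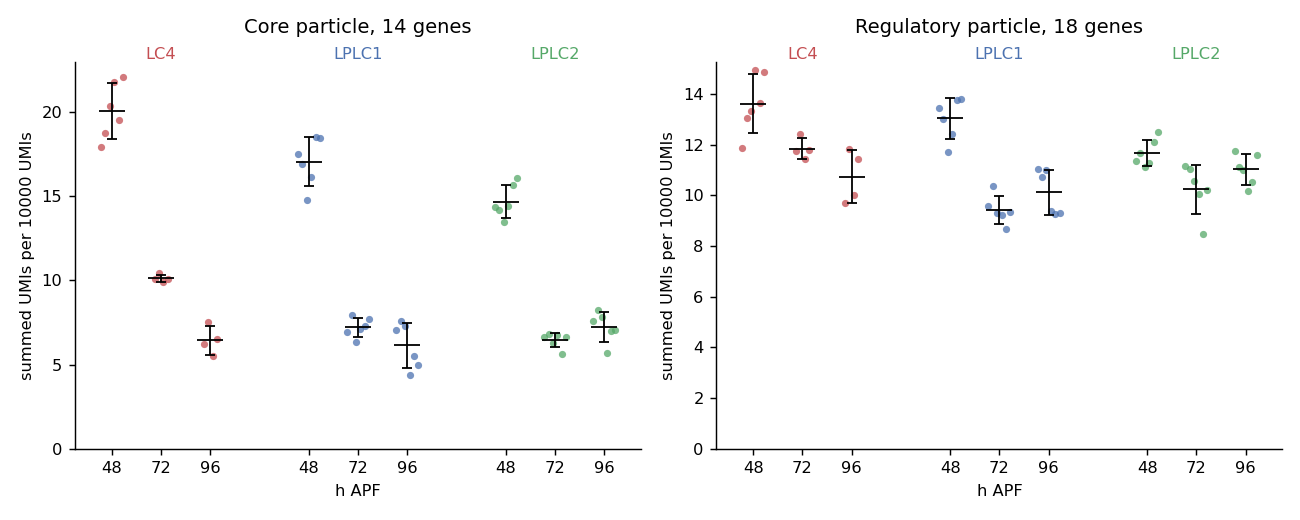
Summed level of the 14 core particle subunits and of the 18 regulatory particle subunits (UMIs per 10000 UMIs) by stage (48, 72 and 96 h APF) in LC4, LPLC1 and LPLC2; points are crosses and black bars the mean ± SD. The core sums at 72 h lie below all those at 48 h in each type (9.90 to 10.4 against 17.9 to 22.1 in LC4), and the regulatory sums move less.

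All 13 tested core subunits fell between 48 and 72 h in all 3 types, and for each of them the crosses did not overlap in any type (edgeR's quasi-likelihood test, Benjamini-Hochberg adjusted p below 0.05). Of the 34 tested members, 21 did not overlap in LPLC2, 22 in LPLC1 and 22 in LC4, where 53.2%, 41.7% and 41.3% of all genes tested did not. Over the 34 tested members, 28 passed the threshold in LPLC2, 6 of them higher and 22 lower at 72 h, where 72.0% of all genes tested passed it in either direction. In LPLC1 25 members passed (1 higher, 24 lower; 63.5% of all genes) and in LC4 25 (3 higher, 22 lower; 61.9%). Most genes thus changed between these stages, and the members' counts are to be read against these shares. By direction, 36.2% of all genes were higher and 35.8% lower at 72 h in LPLC2, 32.9% and 30.7% in LPLC1, and 31.2% and 30.8% in LC4. The median log2 fold change of the core subunits was −1.05 in LPLC2, −1.08 in LPLC1 and −0.91 in LC4. The other tested genes with transcripts of the same length as the core genes (815 to 1215 nt) had medians of −0.06, −0.08 and 0.01.

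Prosbeta3, a non-catalytic β subunit (3R, 9005313 to 9006226), fell most. Its level in LPLC2 was 0.171, 0.204 and 0.227 UMIs per 10000 (lowest, median and highest of 6 crosses) at 72 h, against 1.09, 1.23 and 1.53 at 48 h (log2 fold change −2.61 ± 0.13, SE, adjusted p = 3.48e-23, edgeR). In LPLC1 it was 0.184, 0.250 and 0.286 at 72 h against 1.19, 1.46 and 1.72 at 48 h (−2.47 ± 0.14). The 4 LC4 crosses had 0.403, 0.418, 0.451 and 0.386 at 72 h, against 1.30, 1.78 and 1.99 at 48 h (−1.95 ± 0.15). The highest cross at 72 h stood well below the lowest at 48 h in each type. When each cell was thinned to 10000 UMIs, Prosbeta3 was detected in 33.9% of 540 LC4 cells at 72 h against 73.9% of 345 at 48 h, in 19.7% of 563 LPLC1 cells against 74.5% of 635, and in 17.0% of 851 LPLC2 cells against 71.5% of 1240. The opposite-strand gene CG11980 shares 19 nt of exon with Prosbeta3.

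Among the α subunits, Prosalpha7 fell most. It had 0.432, 0.501 and 0.669 UMIs per 10000 (lowest, median, highest) in LPLC2 at 72 h, against 1.53, 1.60 and 1.78 at 48 h (log2 fold change −1.55 ± 0.10). In LPLC1 the values were 0.571, 0.625 and 0.717 against 1.68, 1.80 and 1.98 (−1.39 ± 0.10), and in LC4 0.924, 0.969, 0.931 and 0.861 in the 4 crosses at 72 h against 2.31, 2.36 and 2.43 at 48 h (−1.27 ± 0.11). The stages did not overlap in any type. Of the other leading core genes, Prosbeta7 (3R, 5357012 to 5358364), a β-ring subunit, changed by −1.23 ± 0.11 in LPLC2 and −1.26 ± 0.12 in LPLC1, and Prosalpha4 (X, 16276270 to 16277587), an α-ring subunit, by −1.23 ± 0.11 in LC4.

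The 3 catalytic subunits fell as well, to different extents. Prosbeta1, which carries the caspase-like site, had 0.497, 0.523 and 0.575 UMIs per 10000 in LPLC2 at 72 h against 0.937, 0.992 and 1.17 at 48 h (lowest, median, highest; log2 fold change −0.90 ± 0.08). Prosbeta2, with the trypsin-like site (3L, 14999951 to 15001319), had 0.578, 0.650 and 0.734 against 1.32, 1.41 and 1.54 (−1.05 ± 0.09). Prosbeta5, with the chymotrypsin-like site, had 0.612, 0.747 and 0.832 against 1.17, 1.35 and 1.501 (−0.80 ± 0.08). Prosbeta5 had the smallest change of all core subunits in each type, with −0.62 ± 0.09 in LPLC1 and −0.44 ± 0.10 in LC4. Prosbeta2 changed by −1.19 ± 0.09 in LPLC1 and −0.67 ± 0.10 in LC4, and Prosbeta1 by −0.98 ± 0.08 and −0.64 ± 0.09. At 72 h the LC4 crosses had 1.07, 1.11, 1.05 and 0.983 of Prosbeta5, against 1.14, 1.53 and 1.71 at 48 h, so that even here the stages did not overlap.

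The regulatory particle was mixed. Of its 18 tested subunits, 5 rose and 9 fell in LPLC2 between 48 and 72 h, 0 rose and 11 fell in LPLC1, and 2 rose and 8 fell in LC4. Among all genes tested 36.2% rose and 35.8% fell in LPLC2, 32.9% and 30.7% in LPLC1, and 31.2% and 30.8% in LC4. The medians of the log2 fold changes of the 18 subunits were −0.18, −0.36 and −0.19. The genes that rose in LPLC2 were 4 ATPases and a lid subunit: Rpt1 (0.27 ± 0.08), Rpt2 (0.21 ± 0.08), Rpt4 (0.30 ± 0.09), Rpt6 (0.29 ± 0.09) and Rpn7 (0.43 ± 0.10). Rpt6 and Rpn7 also rose in LC4.

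Rpt6, an ATPase of the base (X, 21316052 to 21317663), had 0.934, 1.07, 0.860 and 0.903 UMIs per 10000 in the LC4 crosses at 72 h, against 0.595, 0.709 and 0.745 (lowest, median, highest) at 48 h (log2 fold change 0.52 ± 0.11, adjusted p = 2.74e-05, edgeR). Rpn7, a structural subunit of the lid (3R, 22460662 to 22462054), had 0.546, 0.520, 0.534 and 0.555 at 72 h in LC4, against 0.305, 0.404 and 0.442 at 48 h (0.48 ± 0.11). All LC4 crosses at 72 h exceeded those at 48 h for both genes. In LPLC2 the stages overlapped: Rpt6 had 0.531, 0.629 and 0.720 at 72 h against 0.496, 0.527 and 0.577 at 48 h, and Rpn7 0.270, 0.371 and 0.416 against 0.237, 0.270 and 0.324. Exons of both genes meet opposite-strand genes, Rpt6 over 182 nt with CG1801 and Rpn7 over 88 nt with CG34376. The other 2 ATPases fell in part: Rpt3 (X, 11125101 to 11126785) by 0.39 ± 0.07 on the log2 scale in LPLC2, 0.60 ± 0.08 in LPLC1 and 0.25 ± 0.08 in LC4, and Rpt5 by 0.26 ± 0.09 and 0.42 ± 0.10 in LPLC2 and LPLC1.

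The ubiquitin receptors changed little by 72 h. Rpn1, a base scaffold that also binds ubiquitin-like domains (3L, 19915051 to 19918160), averaged 0.474 ± 0.019, 0.399 ± 0.034 and 0.454 ± 0.054 UMIs per 10000 at 72 h in LC4, LPLC1 and LPLC2, against 0.462 ± 0.059, 0.496 ± 0.069 and 0.525 ± 0.053 at 48 h, and passed the threshold in none of the types. Rpn13 likewise passed it in none, with log2 fold changes of 0.02 ± 0.10 in LC4, −0.14 ± 0.09 in LPLC1 and 0.15 ± 0.08 in LPLC2. Rpn10 (3L, 21537000 to 21538582) fell by 0.21 ± 0.07 in LPLC2 and 0.29 ± 0.08 in LPLC1.

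Rpn11, the lid metalloprotease that cuts ubiquitin chains from the substrate (2L, 5058404 to 5059790), fell in all 3 types. It had 0.445, 0.510 and 0.629 UMIs per 10000 in LPLC2 at 72 h against 0.694, 0.752 and 0.796 at 48 h (log2 fold change −0.47 ± 0.09), with −0.63 ± 0.09 in LPLC1 and −0.47 ± 0.11 in LC4. Rpn9, a structural lid subunit (3R, 23731375 to 23733462), was the lid gene that fell most in LPLC2 and LPLC1, by 0.77 ± 0.10 and 0.77 ± 0.11.

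**Figure D2:**
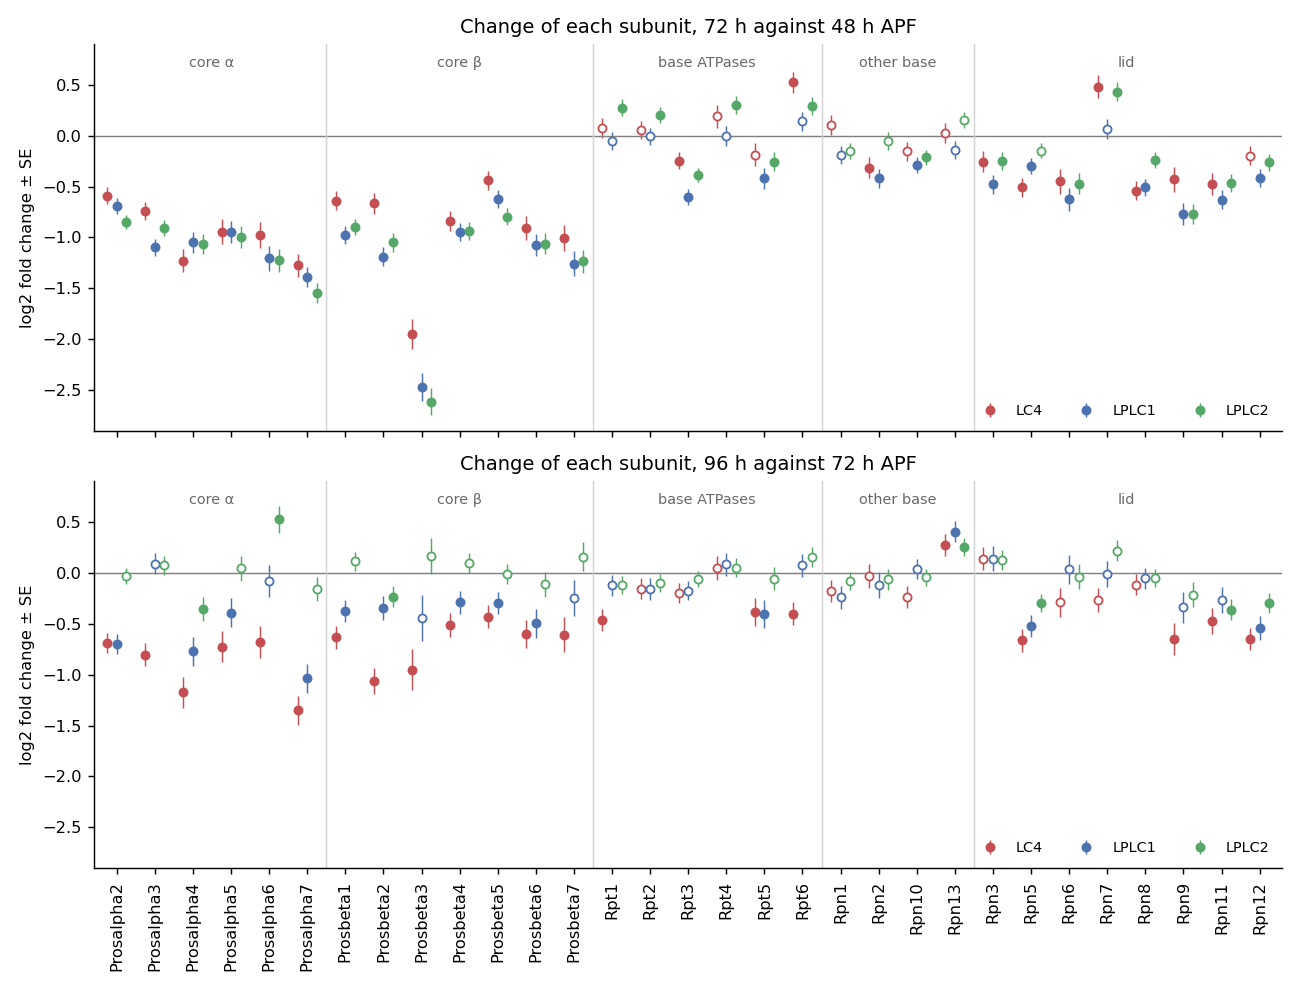
Log2 fold change ± SE of each of the 31 tested general subunits at 72 against 48 h APF (top) and at 96 against 72 h APF (bottom) in LC4, LPLC1 and LPLC2, grouped into core α, core β, base ATPases, other base and lid subunits; filled points have an adjusted p below 0.05 (edgeR) and open points do not. In the top panel all core points lie below 0, down to −2.61 for Prosbeta3 in LPLC2, and the ATPases lie on both sides of 0, while in the bottom panel the core points lie below 0 for all 13 genes in LC4 and on both sides of 0 in LPLC2.

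Since core and regulatory subunits were counted in the same cells, the ratio of their sums (of UMIs not divided by transcript length) does not depend on how libraries are scaled. The core sum was 1.48 ± 0.039 times the regulatory sum in LC4 at 48 h, 0.855 ± 0.011 at 72 h and 0.600 ± 0.047 at 96 h (SD, n = 6, 4 and 4). In LPLC1 the ratio was 1.31 ± 0.030, 0.769 ± 0.060 and 0.602 ± 0.089, and in LPLC2 1.26 ± 0.035, 0.633 ± 0.035 and 0.656 ± 0.067 (n = 6 each). No cross at 72 h came near any at 48 h: the highest ratio at 72 h was 0.867 and the lowest at 48 h 1.21. At 72 h the types did not overlap, with 0.840 to 0.867 in LC4 above 0.681 to 0.838 in LPLC1 and 0.594 to 0.673 in LPLC2. At 96 h they overlapped. These ratios compare sums of UMIs and not molecules of protein.

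**Figure D3:**
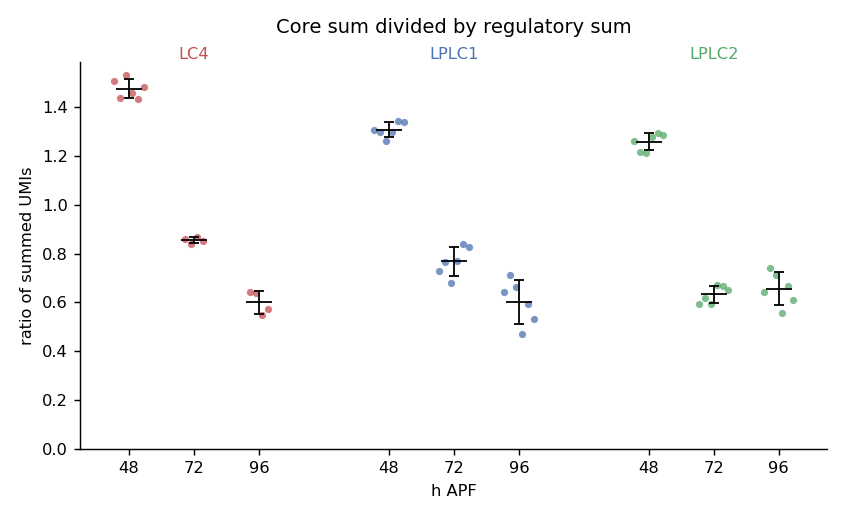
Ratio of the summed UMIs of the 14 core subunits to those of the 18 regulatory subunits by stage (48, 72 and 96 h APF) in LC4, LPLC1 and LPLC2; points are crosses and black bars the mean ± SD. The crosses lie between 1.21 and 1.53 at 48 h and between 0.594 and 0.867 at 72 h.

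A list of 16 heat shock and chaperone genes, many of them known to respond to heat and to tissue dissociation, was also lower at 72 than at 48 h in every type. Its summed level ranged over 126 to 175 UMIs per 10000 in LC4 at 48 h, 43.5 to 64.3 at 72 h and 34.3 to 52.5 at 96 h, in LPLC1 over 109 to 144, 56.0 to 81.8 and 30.6 to 66.3, and in LPLC2 over 102 to 133, 48.5 to 69.1 and 37.2 to 72.6. Its mean at 72 h was 0.384, 0.553 and 0.492 times that at 48 h in LC4, LPLC1 and LPLC2. The core sum had ratios of 0.504, 0.423 and 0.440. At 96 over 72 h its ratios were 0.766, 0.639 and 0.914, against 0.637, 0.8505 and 1.12 for the core sum. In LC4 its mean was the highest of the types at 48 h (144, against 126 in LPLC1 and 119 in LPLC2). At 72 h it was lowest there (55.2, against 69.8 and 58.7). The core sum averaged highest in LC4 at both stages. Of the 14 members tested, 7 fell and 0 rose in LPLC2 by 72 h, 6 fell and 2 rose in LPLC1, and 14 fell in LC4. Of all genes tested, 35.8%, 30.7% and 30.8% fell and 36.2%, 32.9% and 31.2% rose in LPLC2, LPLC1 and LC4. The part of these genes or of cell handling in the core difference was not tested. Median UMIs per cell were higher at 72 h than at 48 h in each type (29764 against 23658 in LC4). The number of general subunits detected in a cell thinned to 10000 UMIs had a median of 20, 15 and 13 at 48, 72 and 96 h in LC4, 18, 12 and 12 in LPLC1 and 17, 12 and 13 in LPLC2.

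Between 72 and 96 h the stage changes differed between the types. In LC4 22 members passed the threshold (1 higher, 21 lower; 45.9% of all genes in either direction, 20.4% higher and 25.6% lower), among them all 13 tested core subunits, with a median log2 fold change of −0.69. Of these, 11 had crosses that did not overlap, as had 17 of the 34 members and 42.0% of all genes. In LPLC1 13 members passed (1 higher, 12 lower; 48.7% of all genes, 22.1% higher and 26.7% lower), of which 9 were core subunits, with a core median of −0.37. In LPLC2 8 members passed (2 higher, 6 lower; 54.5%, 28.8% higher and 25.7% lower), and the core median was 0.05. Strain DGRP-535 weighed on the last count, which was 5 without it. The other tested genes of core length had medians of −0.29 in LC4, −0.08 in LPLC1 and 0.07 in LPLC2. The median mitochondrial share of UMIs per cell was 2.995% at 96 h against 2.15% at 72 h in LC4, 3.62% against 2.45% in LPLC1 and 3.01% against 2.598% in LPLC2, and its part in these changes was not tested.

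In LC4 Prosalpha7 fell again, to 0.446, 0.401, 0.253 and 0.443 UMIs per 10000 in the 4 crosses at 96 h, against 0.924, 0.969, 0.931 and 0.861 at 72 h (log2 fold change −1.35 ± 0.14, adjusted p = 2.59e-11, edgeR). Prosalpha4 had 0.362, 0.291, 0.274 and 0.283 at 96 h, against 0.536, 0.696, 0.603 and 0.660 at 72 h (−1.17 ± 0.15). Prosbeta2 had 0.465, 0.583, 0.411 and 0.550, against 1.01, 0.979, 0.928 and 1.01 (−1.06 ± 0.13). For each of these genes the highest cross at 96 h was below the lowest at 72 h. The other catalytic subunits changed less: Prosbeta1 had 0.576, 0.699, 0.632 and 0.710 at 96 h against 0.960, 0.994, 0.892 and 0.935 at 72 h (−0.63 ± 0.11), and Prosbeta5 0.623, 1.11, 0.769 and 0.825 against 1.07, 1.11, 1.05 and 0.983 (−0.43 ± 0.11) with 1 cross at 96 h as high as at 72 h. Of the 18 regulatory subunits in LC4, 7 fell (Rpn5, Rpn9, Rpn11, Rpn12, Rpt1, Rpt5 and Rpt6) and Rpn13 rose.

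In LPLC1 the leading changes were again α subunits. Prosalpha7 had 0.141, 0.351 and 0.477 UMIs per 10000 at 96 h against 0.571, 0.625 and 0.717 at 72 h (lowest, median, highest; log2 fold change −1.03 ± 0.14), Prosalpha4 changed by −0.77 ± 0.14 and Prosalpha2 by −0.70 ± 0.10. In LPLC2 Prosalpha6, an α-ring subunit (2L, 10221351 to 10222546), rose to 0.389, 0.569 and 0.703 at 96 h, against 0.270, 0.349 and 0.389 at 72 h (0.53 ± 0.13, adjusted p = 7.61e-04, edgeR), and Prosalpha4 (−0.35 ± 0.12) and Prosbeta2 (−0.23 ± 0.10) fell.

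Rpn13 stood apart from the rest of the set. This ubiquitin receptor, which in mammals also docks the deubiquitinase Uch-L5, had 0.901, 0.990, 0.969 and 0.832 UMIs per 10000 in the LC4 crosses at 96 h, against 0.694, 0.726, 0.698 and 0.709 at 72 h (log2 fold change 0.27 ± 0.11, adjusted p = 0.034, edgeR). It had 0.729, 0.987 and 1.26 against 0.520, 0.617 and 0.802 in LPLC1 (0.40 ± 0.10, adjusted p = 6.62e-04) and 0.814, 0.984 and 1.29 against 0.681, 0.754 and 0.807 in LPLC2 (0.25 ± 0.09, adjusted p = 0.011). Rpn13 rose in all 3 types, and the crosses did not overlap in LC4 and LPLC2. Of all genes tested, 42% and 32.1% did not overlap there. The other receptors did not pass the threshold at 96 against 72 h, with log2 fold changes of −0.18 to −0.08 for Rpn1 in LC4 and LPLC2, −0.24 for Rpn1 in LPLC1, and −0.24, 0.04 and −0.05 for Rpn10 in LC4, LPLC1 and LPLC2. Rpn12, a lid subunit (3L, 16583028 to 16584022), and Rpn5, another, fell in all 3 types, by 0.65 ± 0.11 and 0.66 ± 0.12 in LC4, 0.54 ± 0.11 and 0.53 ± 0.11 in LPLC1, and 0.30 ± 0.10 and 0.30 ± 0.09 in LPLC2. Rpn11 fell in LC4 (−0.47 ± 0.13) and LPLC2 (−0.36 ± 0.10).

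The directions of these later changes depended in part on the scaling. With library size alone in place of normalisation by trimmed means, the median of all genes moved to 0.185 in LPLC2 and 0.178 in LPLC1 (0.040 and −0.043 in the main fit). The count in LPLC2 was then 7 higher and 0 lower, and that in LPLC1 7 higher and 5 lower, against 1 higher and 18 lower in LC4.

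The difference between types in the stage change was tested directly, as an interaction. Between 72 and 96 h the change of all 13 tested core subunits was lower in LC4 than in LPLC2, with a median difference of −0.77 on the log2 scale and a range of −1.21 (Prosalpha6) to −0.42 (Prosbeta5). Together with Rpt6 (−0.55 ± 0.15) and Rpn7 (−0.48 ± 0.16), this made 15 of 34 members, 0 of them in the other direction, where 26.3% of all genes passed in either direction, 11.1% higher and 15.2% lower. With library size alone the count was 14. Over the same stages the other tested genes of core length had median log2 fold changes of −0.29 in LC4 and 0.07 in LPLC2. The change was lower in LPLC1 than in LPLC2 for 4 of 34 members (11.2% of all genes in either direction, 3.85% higher and 7.36% lower), namely Prosalpha7 (−0.88), Prosalpha2 (−0.67), Prosalpha6 (−0.61) and Prosbeta1 (−0.49), but the count was 2 without any one of strains DGRP-320, DGRP-399, DGRP-799 and DGRP-805.

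Between 48 and 72 h the interaction was smaller. Prosbeta3 (0.66 ± 0.20), Prosbeta2 (0.38 ± 0.13) and Prosbeta5 (0.36 ± 0.13) fell less in LC4 than in LPLC2, and the lid subunits Rpn5 (−0.36 ± 0.12) and Rpn8 (−0.31 ± 0.12) fell more, which made 5 of 34 members (32.3% of all genes in either direction, 15.1% higher and 17.2% lower). The count was 3 without strain DGRP-399 or DGRP-730, 2 without DGRP-535 or DGRP-805 and 1 without DGRP-799. In LPLC1 against LPLC2 it was 2 of 34, both lower (15.9% of all genes in either direction, 7.36% higher and 8.59% lower): Rpn2, a base scaffold (−0.36 ± 0.13), and Rpt3R (−1.48 ± 0.36), with 1 left without strain DGRP-320 or DGRP-399.

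Within a stage, LC4 had the highest mean core and regulatory sums at 48 and 72 h. Its core sum at 48 h was 17.9 to 22.1 UMIs per 10000, against 14.8 to 18.5 in LPLC1 and 13.5 to 16.1 in LPLC2. Its regulatory sum was 11.9 to 14.9, against 11.7 to 13.8 and 11.1 to 12.5. LC4 thus overlapped LPLC1 in both sums at 48 h and LPLC2 in the regulatory sum. Its DGRP-555 and DGRP-399 sums at 48 h rested on 12 and 14 cells. At 72 h its core sum ranged from 9.90 to 10.4 UMIs per 10000, against 6.34 to 7.93 in LPLC1 and 5.65 to 6.84 in LPLC2, and its regulatory sum from 11.4 to 12.4, against 8.69 to 10.4 and 8.46 to 11.1. At 96 h the core sums overlapped, with 5.49 to 7.56 in LC4, 4.40 to 7.61 in LPLC1 and 5.67 to 8.24 in LPLC2. Against LPLC2, 27 members differed in LC4 at 48 h (25 higher, 2 lower; 52.4% of all genes in either direction, 26.8% higher), 25 at 72 h (24 higher, 1 lower; 58.7%, 30.4% higher) and 11 at 96 h (6 higher, 5 lower; 49.6%). All 13 tested core subunits were higher in LC4 at 48 and at 72 h, with median differences of 0.53 and 0.69 on the log2 scale, and at 96 h 1 was higher and 1 lower. Of all genes, 22.5% were higher and 27.1% lower in LC4 than in LPLC2 at 96 h. The count of members at 96 h was 6 without strain DGRP-535, and with library size alone it split into 3 higher and 8 lower.

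Prosalpha6 differed most among the core subunits of LC4 and LPLC2 at 48 h, with 1.22, 1.47 and 1.60 UMIs per 10000 in LC4 against 0.756, 0.837 and 0.941 in LPLC2 (lowest, median, highest; log2 difference 0.83 ± 0.11). At 72 h Prosbeta3 differed most (1.13 ± 0.15), followed by Prosalpha6 (1.09 ± 0.13). At 96 h neither passed the threshold (0.01 and −0.12). Among the catalytic subunits, Prosbeta1 showed the largest difference at 72 h, with 0.960, 0.994, 0.892 and 0.935 in LC4 against 0.497, 0.523 and 0.575 in LPLC2 (0.92 ± 0.09). The LC4 crosses lay above all LPLC2 crosses for these genes at 72 h. At that stage 21 of the 34 members and 46% of all genes tested did not overlap between these types.

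Rpn12 kept the difference at all stages. It had 1.15, 1.19 and 1.30 UMIs per 10000 in LC4 at 48 h against 0.654, 0.723 and 0.823 in LPLC2 (log2 difference 0.78 ± 0.09), 1.001, 1.05, 0.921 and 1.01 against 0.467, 0.597 and 0.627 at 72 h (0.85 ± 0.09), and 0.567, 0.721, 0.600 and 0.825 against 0.464, 0.517 and 0.620 at 96 h (0.49 ± 0.12). The types did not overlap at 48 and 72 h, where 30.6% and 46% of all genes tested did not. At 96 h Prosbeta6, a β-ring subunit (0.41 ± 0.14), and Rpn3, a lid subunit (0.49 ± 0.12), were also higher in LC4, and Rpn5 (−0.46 ± 0.12), Rpn9 (−0.39 ± 0.16), Rpn10 (−0.30 ± 0.11) and Prosalpha5 (−0.38 ± 0.16) were lower. Rpn9 was lower in LC4 at 48 h too (−0.30 ± 0.11).

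Against LPLC1, 16 members were higher in LC4 at 48 h and 0 lower (37.5% of all genes in either direction), 23 were higher and 1 lower at 72 h (50.0%), and 9 were higher and 1 lower at 96 h (37.9%). With library size alone the last split was 5 higher and 3 lower. Rpn12 again differed at each stage (0.51 ± 0.09, 0.73 ± 0.09 and 0.63 ± 0.13). The general subunits that led otherwise were Prosbeta6 (0.48 ± 0.10) at 48 h, Prosbeta3 (0.83 ± 0.16) at 72 h and Prosbeta6 (0.55 ± 0.16) at 96 h.

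Fewer members differed between LPLC1 and LPLC2. At 48 h 12 members were higher in LPLC1 and 1 lower (33.6% of all genes in either direction, 18.2% higher and 15.4% lower), led by Rpt3R, Rpn7 (0.40 ± 0.10) and Prosalpha6 (0.37 ± 0.11). At 72 h 6 were higher and 0 lower (35.4%, 18.9% higher and 16.5% lower), among them 5 core subunits with Prosalpha6 (0.39 ± 0.13) and Prosalpha7 (0.30 ± 0.11) in front. This count was 3 without strain DGRP-799 or DGRP-805, and with library size alone 1 was higher and 3 lower. At 96 h 2 were lower and 0 higher (26.5%, 10.2% higher and 16.2% lower): Prosalpha7 had 0.141, 0.351 and 0.477 UMIs per 10000 in LPLC1 against 0.391, 0.580 and 0.629 in LPLC2 (−0.58 ± 0.15), and Prosalpha2 differed by −0.41 ± 0.11. The 2 types overlapped for Prosalpha7.

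**Figure D4:**
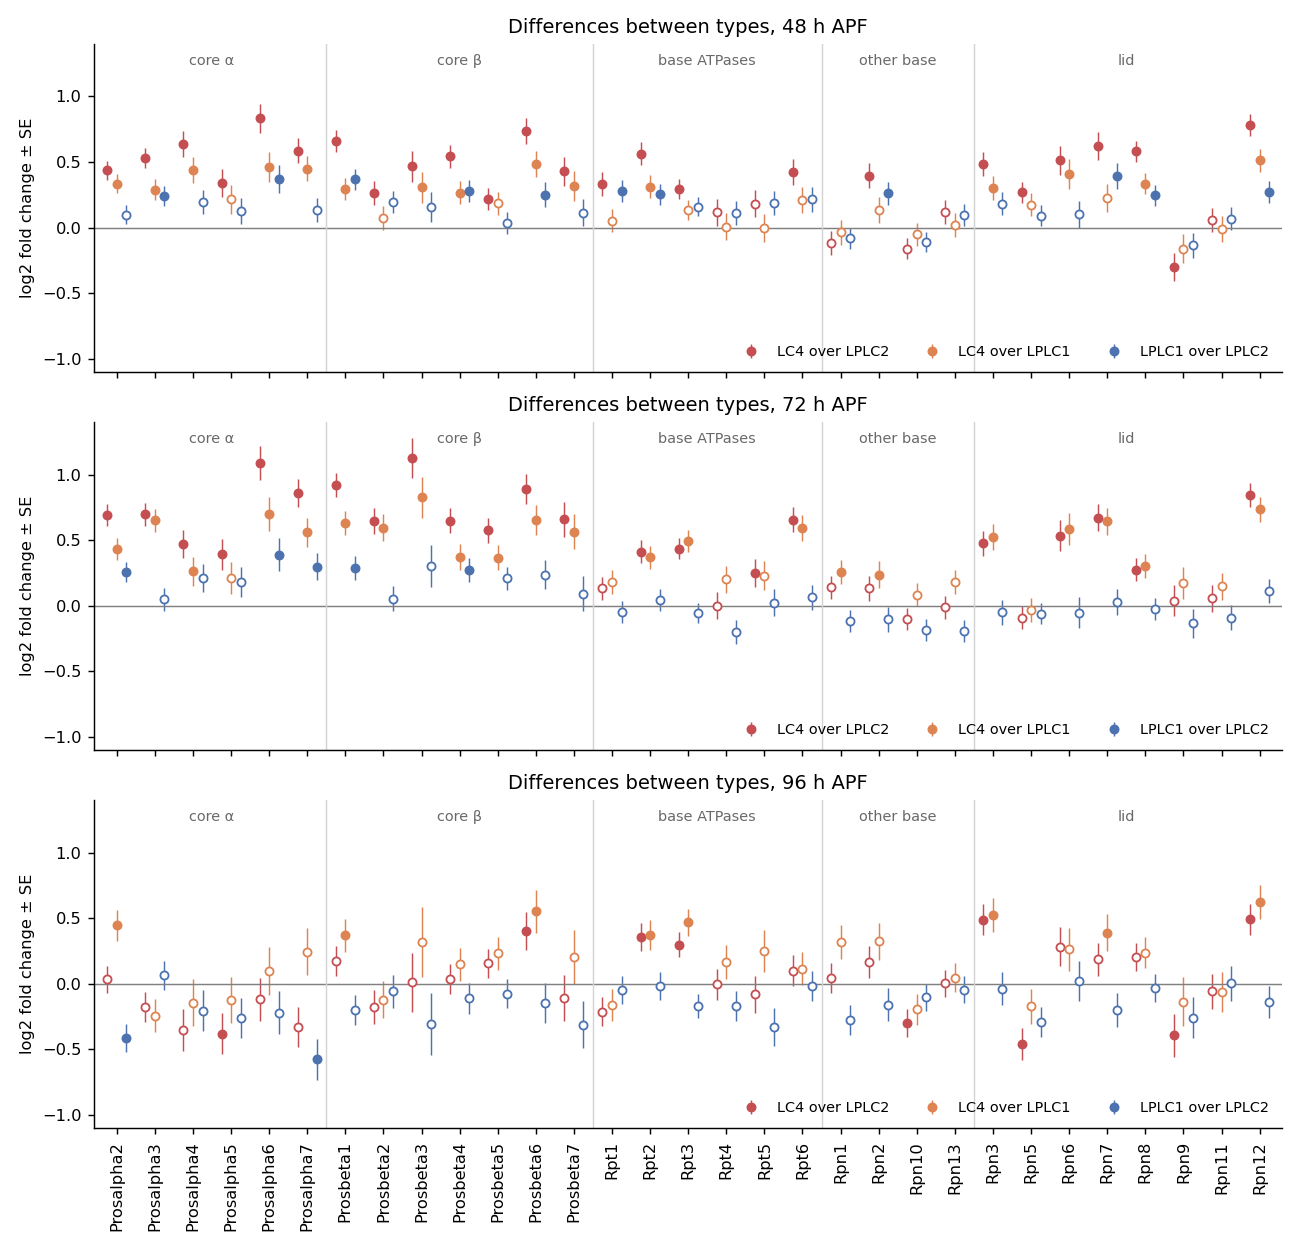
Log2 difference ± SE of each of the 31 tested general subunits for LC4 over LPLC2, LC4 over LPLC1 and LPLC1 over LPLC2 at 48, 72 and 96 h APF (top to bottom), in the same classes of subunit; filled points have an adjusted p below 0.05 (edgeR) and open points do not. For LC4 over LPLC2 all core points lie above 0 at 48 and 72 h, up to 1.13 for Prosbeta3 at 72 h, and on both sides of 0 at 96 h.

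Markers of other cells also differed between the types. The photoreceptor list of 5 genes was nearly all norpA, with averages of 1.38, 1.97 and 2.92 UMIs per 10000 in LC4 at 48, 72 and 96 h, 3.66, 6.75 and 10.9 in LPLC1 and 8.58, 8.78 and 7.68 in LPLC2, while the defining opsin ninaE stayed at or below 0.152. The glial list of 8 genes summed to 0.168 to 0.330 UMIs per 10000 in the LC4 crosses at 48 h, against 1.13 to 1.57 in LPLC1 and 1.64 to 2.22 in LPLC2. At 72 h it was 0.418 to 0.656 in LC4, against 0.617 to 0.810 in LPLC1 and 0.751 to 0.858 in LPLC2, and at 96 h 0.466 to 0.548, against 0.337 to 0.583 and 0.402 to 0.703. Most of it was nrv2, which averaged lowest in LC4 at each stage (0.321 at 72 h, against 0.606 in LPLC1 and 0.667 in LPLC2), but Gat, Gs2, alrm and Eaat1 averaged highest in LC4 at 72 h (Gat 0.0917, against 0.0330 and 0.0421), and repo stayed at or below 0.0068. Of the hemocyte list, crq averaged 0.187, 0.635 and 0.700 in LC4 at 48, 72 and 96 h. It averaged 0.185, 0.491 and 0.531 in LPLC1 and 0.174, 0.736 and 0.705 in LPLC2. Hml, srp and NimC1 had at most 1 UMI in any group. Of the progenitor list, mira averaged 0.0171, 0.0592 and 0.103 in LC4 and at most 0.0152 in the others, and dpn at most 0.00295. The part of these markers in the differences between types or stages was not tested.

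The related paralogues were rare. Rpt3R held 958 of their 1659 UMIs, Rpn13R 342 and Rpt6R 272. Each of the other 12 had 31 UMIs or fewer: Prosbeta5R1 31, Prosalpha4T2 12, Prosalpha3T and Prosalpha4T1 9 each, Prosbeta2R1 7, Prosbeta2R2 and Rpt4R 6 each, Prosbeta4R1 3, Prosbeta5R2 2, Prosalpha6T and Prosbeta4R2 1 each and Rpn12R 0. Per kilobase of transcript, Rpt3 exceeded Rpt3R 14.7-fold (0.847 against 0.0578 UMIs per 10000 and kb), Rpn13 exceeded Rpn13R 18.5-fold and Rpt6 exceeded Rpt6R 29.8-fold. For Prosbeta5 against Prosbeta5R1 the ratio was 393, and for the other pairs with any count it was 775 or more. The male germline list had at most 0.199 UMIs per 10000 in any group.

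Rpt3R, a paralogue of the ATPase Rpt3 (3R, 9754735 to 9756510), rose while Rpt3 fell. In LPLC2 it had 0.0714, 0.0848 and 0.137 UMIs per 10000 at 72 h, against 0.00863, 0.0185 and 0.0362 at 48 h (lowest, median, highest; log2 fold change 2.31 ± 0.24, adjusted p = 1.69e-12, edgeR). In LC4 the 4 crosses had 0.245, 0.263, 0.191 and 0.185 at 72 h, against 0.0559, 0.0716 and 0.171 at 48 h (1.59 ± 0.22), and in LPLC1 the values were 0.0363, 0.0633 and 0.0798 against 0.0200, 0.0336 and 0.0633 (0.83 ± 0.26). The stages did not overlap in LPLC2 and LC4. By 96 h Rpt3R fell in LPLC2, to 0.0478, 0.0591 and 0.0756 (−0.65 ± 0.24, adjusted p = 0.020, edgeR). LC4 was highest at each stage, with log2 differences to LPLC2 of 2.09 ± 0.28, 1.37 ± 0.19 and 1.96 ± 0.26 and to LPLC1 of 1.06 ± 0.27, 1.82 ± 0.20 and 2.23 ± 0.32 at 48, 72 and 96 h. LPLC1 exceeded LPLC2 at 48 h only (1.03 ± 0.29), and the difference of the stage changes is the interaction given above.

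The share of cells with Rpt3R was likewise highest in LC4 at each stage. With every cell thinned to 10000 UMIs, Rpt3R was found in 6.38% of 345 LC4 cells at 48 h, 16.9% of 540 at 72 h and 21.0% of 186 at 96 h. In LPLC1 it was found in 3.62% of 635, 5.15% of 563 and 5.29% of 189 cells, and in LPLC2 in 1.86% of 1240, 8.46% of 851 and 5.34% of 393. The exact 95% intervals, which cover counting error only, were 13.8 to 20.3% in LC4, 3.48 to 7.31% in LPLC1 and 6.68 to 10.5% in LPLC2 at 72 h. Without thinning the shares at 72 h were 35.8%, 11.9% and 14.1%. Prosbeta5R1, a paralogue of the catalytic Prosbeta5, was found at 48, 72 and 96 h in 0 of 345, 540 and 186 thinned LC4 cells and in 0 of 635, 563 and 189 LPLC1 cells, against 8 of 1240, 7 of 851 and 1 of 393 LPLC2 cells. At this depth a count of 0 allows a share of cells with a UMI of up to 0.870%, 0.556% and 1.61% in LC4 and of up to 0.472%, 0.533% and 1.59% in LPLC1, and the exact 95% intervals of the LPLC2 shares at 48 and 72 h began at 0.279% and 0.331%. These limits concern detection and not the cells that express the gene, and the difference between types was not tested.

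Rpn13R, a paralogue of the receptor Rpn13 that lies within rg and CG15465 on the same strand (X, 5131898 to 5132985), went the other way between types. It had 0.0102, 0.00255, 0.00735 and 0.00426 UMIs per 10000 in the LC4 crosses at 72 h, against 0.0296, 0.0310 and 0.0441 (lowest, median, highest) in LPLC2 (log2 difference −2.51 ± 0.45, adjusted p = 4.55e-06, edgeR). LC4 was also below LPLC2 at 48 h (−1.16 ± 0.36) and 96 h (−1.92 ± 0.55) and below LPLC1 at 72 h (−1.79 ± 0.51) and 96 h (−1.62 ± 0.63), and LPLC1 was below LPLC2 at 48 h (−1.89 ± 0.35). Between stages Rpn13R passed the threshold only in LC4 at 72 against 48 h (−1.86 ± 0.55), where the crosses overlapped. It shares no exon bases with the genes it lies in, but whether intronic reads were counted is not given. The part of unspliced transcripts of those genes in its counts was not tested.

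Rpt6R, a paralogue of the ATPase Rpt6 (3R, 30582198 to 30583697), was close to 0 at 96 h. It had 3, 4 and 2 UMIs in all at 96 h in LC4, LPLC1 and LPLC2, against 54, 40 and 18 at 72 h. Relative to all UMIs the ratios were 0.201 (95% counting interval 0.0401 to 0.618), 0.363 (0.0944 to 1.01) and 0.281 (0.0316 to 1.17). In the test across genes it passed the threshold in LC4 alone (adjusted p = 0.044, edgeR), and its fitted fold change rests on these few counts. At 72 h Rpt6R was higher in LC4 than in LPLC2 (1.997 ± 0.63 on the log2 scale) and higher in LPLC1 than in LPLC2 (1.77 ± 0.64).

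**Figure D5:**
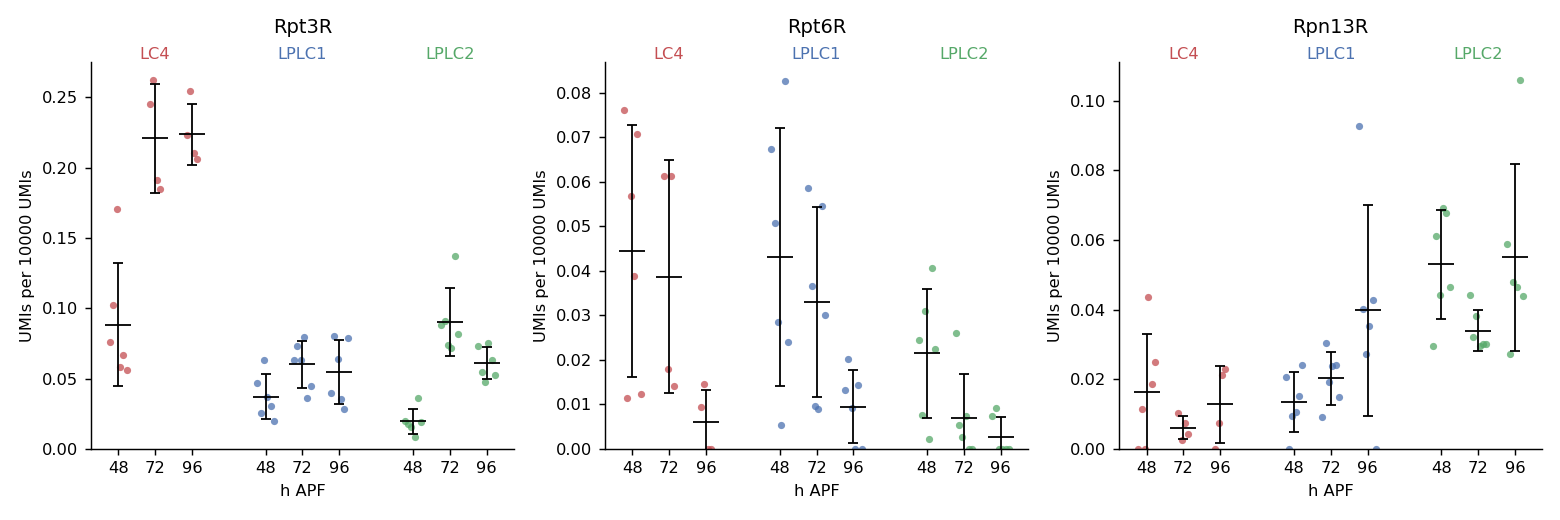
Levels of Rpt3R, Rpn13R and Rpt6R (UMIs per 10000 UMIs) by stage (48, 72 and 96 h APF) in LC4, LPLC1 and LPLC2; points are crosses and black bars the mean ± SD, with axes that begin at 0. Mean Rpt3R is highest in LC4 at every stage, mean Rpn13R is lowest in LC4 at 72 h, and Rpt6R is near 0 at 96 h in all types.

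Rpt6R was also the member that differed between DGRP strains. With type and stage in the model, 1 of 34 members passed the threshold for strain (12.8% of all genes passed it), and 2 did at an unadjusted p below 0.05. For Rpt6R the adjusted p was 9.64e-05 (edgeR), and the strain terms spanned 2.69 on the log2 scale, against a median span of 0.377 over all genes. Strain DGRP-799 had 0.0707, 0.0826 and 0.0407 UMIs per 10000 at 48 h in LC4, LPLC1 and LPLC2, and strain DGRP-399 had 0.0762, 0.0673 and 0.0245. Strain DGRP-730 had 0.0388, 0.00524 and 0.00216, and strain DGRP-535 had 0.0113, 0.0507 and 0.00763. Against DGRP-320, absent at 48 h, the strain terms were −0.66 for DGRP-799, −0.88 for DGRP-399 and −1.35 for DGRP-555. They were −2.15 for DGRP-805, −2.24 for DGRP-535 and −2.69 for DGRP-730. In LPLC2 at 72 h DGRP-320 had 0.0261 UMIs per 10000 and the other strains 0 to 0.00739. The gene lies on the third chromosome, the one that differed between crosses. Strains were also collected in an early group (DGRP-399, DGRP-535, DGRP-555 and DGRP-320) and a late group (DGRP-730, DGRP-799 and DGRP-805). A difference between these groups cannot be told apart from collection age. Strain terms also differed within a group, as between DGRP-399 and DGRP-535 (−0.88 and −2.24) and between DGRP-799 and DGRP-730 (−0.66 and −2.69). The part of collection age was not tested.

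Other genes of the pathway, counted over lists chosen for their function, did not follow 1 pattern, and their counts are to be read against the shares of all genes called by direction (for 72 against 48 h, 36.2% higher and 35.8% lower in LPLC2, 32.9% and 30.7% in LPLC1, and 31.2% and 30.8% in LC4). The COP9 signalosome is a complex related to the lid that controls cullin ubiquitin ligases. With the heat shock list given above set aside, it fell most often among the lists. Of its 8 genes tested, 8 fell in LPLC2, 7 in LPLC1 and 5 in LC4 between 48 and 72 h, and 0 rose. CSN5, its catalytic subunit, averaged 0.1005, 0.110 and 0.196 UMIs per 10000 at 72 h in LPLC2, LPLC1 and LC4, against 0.521, 0.497 and 0.546 at 48 h (log2 fold changes −2.29 ± 0.15, −1.98 ± 0.17 and −1.46 ± 0.17). Between 72 and 96 h 2 COP9 genes rose and 1 fell in LPLC2, and 4 fell and 0 rose in LPLC1 and in LC4. Over these stages 28.8% of all genes tested rose and 25.7% fell in LPLC2, 22.1% and 26.7% in LPLC1, and 20.4% and 25.6% in LC4.

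Factors that act on the proteasome itself split. Of the shuttle factors, receptors and deubiquitinases (10 tested), 3 rose and 4 fell in LPLC2 by 72 h, 2 and 4 in LPLC1, and 1 and 4 in LC4. Uch-L5, whose mammalian relative docks on Rpn13, fell to 0.194, 0.164 and 0.207 UMIs per 10000 at 72 h in LPLC2, LPLC1 and LC4, against 0.849, 0.819 and 0.956 at 48 h (−2.07 ± 0.14, −2.19 ± 0.15 and −2.15 ± 0.16), and Uch, a ubiquitin hydrolase, fell by 3.26 ± 0.16 on the log2 scale in LPLC2. Ufd4, a ubiquitin ligase, rose (0.82 ± 0.10 in LPLC2). Of the assembly factors, activators and inhibitors (4 tested), 1 rose and 3 fell in LPLC2, and 1 rose and 1 fell in LPLC1 and in LC4. The gene that rose was Pomp, the chaperone of core assembly, with averages of 1.42, 1.38 and 1.53 at 72 h in LPLC2, LPLC1 and LC4, against 0.911, 1.28 and 1.30 at 48 h (0.70 ± 0.08, 0.25 ± 0.09 and 0.33 ± 0.10). By 96 h Pomp fell in all 3 types (−0.25 ± 0.09, −0.50 ± 0.10 and −0.74 ± 0.11), as did PI31, a proteasome regulator.

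Of 7 regulators of proteasome genes, 2 rose and 4 fell in LPLC2 by 72 h, and 2 rose and 3 fell in LPLC1 and in LC4. The transcription factor cnc, the fly relative of the factors that induce subunit genes when proteolysis is impaired, averaged 0.552, 0.657 and 0.582 UMIs per 10000 at 72 h in LPLC2, LPLC1 and LC4, against 1.20, 1.253 and 0.934 at 48 h (−1.07 ± 0.10, −0.79 ± 0.10 and −0.56 ± 0.11). Its partner maf-S and its inhibitor Keap1 rose in all 3 types (Keap1 1.18 ± 0.16, 1.35 ± 0.19 and 1.28 ± 0.17). Upstream, 6, 5 and 7 of 11 ubiquitin-conjugating enzymes rose by 72 h in LPLC2, LPLC1 and LC4, and 1, 2 and 2 fell. Of 5 ubiquitin and E1 genes, Ubi-p5E rose (1.14 ± 0.11 in LPLC2) and Uba1, the ubiquitin-activating enzyme, fell (−0.60 ± 0.10). Of 14 autophagy genes, the other route of bulk degradation, 5, 4 and 6 rose and 4, 1 and 2 fell in LPLC2, LPLC1 and LC4, where 36.2%, 32.9% and 31.2% of all genes rose. Atg9 rose (1.79 ± 0.24 in LPLC2) and Atg3 fell (−0.76 ± 0.12).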

How the data were processed

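Single-cell RNA sequencing had been done with the 10x Genomics 3′ kit in 1 library per stage, and the 48 h library was read with longer reads than the other 2. Per the paper's methods and the deposited processing notes, the authors aligned reads with Cell Ranger to the dm6 genome with FlyBase annotation, assigned cells to DGRP strains with demuxlet from third-chromosome variants and named cell types from marker genes in Seurat 5.0.1, each stage apart. Whether intronic reads were counted is not given in the sources used here. The deposited tables hold raw UMI counts per gene and cell, not normalised, and the deposited metadata give the strain, type and mitochondrial percent per cell. The authors state a filter of 10000 to 50000 UMIs and at most 10% mitochondrial counts, and 309, 326 and 181 of 2595, 2369 and 1039 cells at 48, 72 and 96 h lay outside it. All cells were kept. No doublet caller was run beyond the authors' genotype assignment.

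Counts were summed per type, stage and strain (10 or more cells) and tested with edgeR 4.0.16 in R 4.3.3 (filterByExpr, trimmed mean normalisation, quasi-likelihood F test), in 1 fit over 50 sums with type and stage as the group. Adjusted p (Benjamini-Hochberg, over 7011 genes) had a threshold of 0.05. The test was also tried on simulated counts. These were drawn with the spread fitted to these data and without correlation between crosses of the same strain. Sums over members have no test. Each printed error of a fold change is its SE. Animals of a cross were pooled, so a p-value measures the spread between crosses that differ in strain. Strain and collection age are tied.

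Named were the catalytic subunits, the ubiquitin receptors and Rpn11, the 3 members with the largest changes past the threshold in each direction of each stage and type comparison, all members past it in an interaction, up to 5 by strain, each paralogue with a UMI, and pathway genes at 1 per direction and list. Some items that the rule names are not reported here. Members, lists and tests were chosen with earlier results of these data known. Ecm29, Fbxo7, crl and CSN2 had no row under that symbol, and ntc did not pass the filter. Positions came from the Ensembl release 115 annotation, and transcript lengths were had for 94.1% of the genes tested.

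The alternatives were DESeq2 size factors, library size alone, no filter beyond 1 UMI, the strain as a block, leaving out each strain, separate fits per type or stage, DESeq2's Wald test (1.42.0), the authors' cell filter, 30 or more cells per sum, cells thinned to 10000 UMIs, and the mean over cells.

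Same-strain sums in the groups compared share the DGRP strain, not animals. The correlation of their deviations was 0.0116 to 0.329, with every pair over 0.1 in LPLC1 against LPLC2 at 48 and 72 h and in LC4 against both at 72 h.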

Additional observations from a re-analysis of the deposited data

Results flagged for a closer look

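In 6 of 135 groups of 4 to 6 crosses, 1 cross stood apart from the others by the size of its gap to them, and chance alone gives about 1 in 20. The summed level of the general subunits was 14.1 UMIs per 10000 in strain DGRP-799 of LPLC2 at 72 h, against 16.8 to 17.9 in the other 5. Prosbeta3 was 0.342 in strain DGRP-535 of LC4 at 96 h, against 0.186 to 0.191. Rpn10 was 0.932 in strain DGRP-805 of LPLC2 at 48 h, against 0.746 to 0.773. Rpn11 was 0.265 in strain DGRP-799 of LPLC2 at 96 h, against 0.429 to 0.520. Rpt3R was 0.137 in strain DGRP-799 of LPLC2 at 72 h, against 0.0714 to 0.0907. Rpt6R was 0.0261 in strain DGRP-320 of LPLC2 at 72 h, against 0 to 0.00739.

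The stage change differed between types, by the test of the interaction in edgeR, for the following members on the log2 scale. In LC4 against LPLC2 between 48 and 72 h these were Prosbeta3 0.66, Prosbeta2 0.38, Prosbeta5 0.36, Rpn5 −0.36 and Rpn8 −0.31. Between 72 and 96 h they were Prosalpha6 −1.21, Prosalpha7 −1.19, Prosbeta3 −1.11, Prosalpha3 −0.88, Prosbeta2 −0.83, Prosalpha4 −0.82, Prosalpha5 −0.77, Prosbeta7 −0.77, Prosbeta1 −0.75, Prosalpha2 −0.66, Prosbeta4 −0.61, Rpt6 −0.55, Prosbeta6 −0.48, Rpn7 −0.48 and Prosbeta5 −0.42. In LPLC1 against LPLC2 they were Rpt3R −1.48 and Rpn2 −0.36 between 48 and 72 h, and Prosalpha7 −0.88, Prosalpha2 −0.67, Prosalpha6 −0.61 and Prosbeta1 −0.49 between 72 and 96 h.

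Cells with the label X, which entered no comparison, also had the general subunits. Their summed level was 25.6 UMIs per 10000 at 48 h (95% counting interval 24.8 to 26.3), 17.6 at 72 h (17.0 to 18.1) and 20.9 at 96 h (20.4 to 21.5).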

How the results depend on the processing

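Across settings other than leaving out a strain, 183 of 210 counts and sums stayed within the range taken as unchanged, and of 1117 values of single genes 1002 kept direction and side of the threshold, 84 lost the call, 19 gained it and 12 turned. The counts of members called that moved by over 1.5 times were mostly small ones. For LPLC1 against LPLC2, 72 against 48 h (2 in the main fit), the count was 4 with DESeq2 size factors, 7 with library size alone, 1 with no filter, 4 with the strain as a replicate block, 4 with the authors' cell filter, 6 with 30 or more cells per sum and 7 with DESeq2's test. For the same types, 96 against 72 h (4), it was 2 with DESeq2 size factors, library size alone, no filter, the cell filter or 30 or more cells, and 1 with thinned cells. For LC4 against LPLC2, 72 against 48 h (5), it was 3 with library size alone or no filter. For LPLC1 against LPLC2 at 72 h (6) it was 3 with no filter and 1 with thinned cells. With thinned cells it was also 5 for LPLC2 96 against 72 h (8), 6 for LPLC1 96 against 72 h (13), 6 for LPLC1 against LPLC2 at 48 h (13), 5 for LC4 against LPLC2 at 96 h (11), 10 for LC4 against LPLC1 at 48 h (16), 3 for LC4 against LPLC1 at 96 h (10) and 0 for strain (1). Thinning leaves fewer UMIs. With separate fits it was 7 for LC4 against LPLC2, 6 for LC4 against LPLC1 and 1 for LPLC1 against LPLC2 at 96 h. The strain block, which pairs crosses of 1 strain, moved no other count of members by over 1.5 times. The cause of the other moves was not tested.

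The values that turned were small. Rpn13 in LC4 at 72 against 48 h (0.02) was −0.0533 with DESeq2 size factors, −0.0629 with library size alone, −0.0612 with DESeq2's test, −0.0132 with the cell filter, −0.0127 with thinned cells, −0.00868 with separate fits and −0.0466 with 30 or more cells, and ranged over −0.0314 (without strain DGRP-730) to 0.0480 with a strain left out. At 96 against 72 h in LPLC2, Prosbeta5 was 0.134 with library size alone and 0.0571 with thinned cells, Rpn1 0.0626 and Rpn10 0.1003 with library size alone. Rpn1 in LC4 at 72 against 48 h was −0.102 with thinned cells, and Rpn10 in LPLC1 at 96 against 72 h ranged over −0.0121 (without strain DGRP-535) to 0.106 with a strain left out.

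With each strain left out in turn, the count was 27 to 30 and 5 to 8 in LPLC2 (72 against 48 h and 96 against 72 h), 25 to 27 and 9 to 16 in LPLC1, and 24 to 26 and 19 to 22 in LC4. Between types at 48, 72 and 96 h it was 10 to 13, 3 to 7 and 2 to 3 for LPLC1 against LPLC2, 25 to 28, 23 to 25 and 6 to 13 for LC4 against LPLC2, and 12 to 18, 21 to 24 and 8 to 11 for LC4 against LPLC1. For the interactions it was 1 to 3 and 2 to 4 (LPLC1) and 1 to 5 and 11 to 15 (LC4), and for strain 1. Sums ranged over 33.0 to 34.5, 21.7 to 22.2 and 16.5 to 17.8 in LC4, 29.7 to 30.8, 16.3 to 16.8 and 15.8 to 16.8 in LPLC1, and 25.9 to 26.7, 16.5 to 17.2 and 18.02 to 18.7 in LPLC2.

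Stage is tied to the library, so every stage difference may hold a library effect, and strain is tied to collection age. LC4 had 4 crosses at 72 and 96 h. Depth limits the paralogues, most of which had under 32 UMIs in all.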
